A study of Mus musculus with 16 samples.

Results

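Circadian clock genes encode the transcription factors and repressors that give most mouse tissues their daily rhythm. The 10 genes described here are Clock, Npas2, Per1, Per2, Per3, Cry1, Nr1d1, Nr1d2, Dbp and Tef, taken by symbol from the 50559 gene symbols of the deposited liver table, and all 10 passed the filter on low counts that left 18335 genes. CLOCK or its paralog NPAS2 pairs with BMAL1 and switches on the Per, Cry, Nr1d and Dbp genes. The PER and CRY proteins then block that pair, and the REV-ERB receptors made from Nr1d1 and Nr1d2 repress Bmal1, Npas2 and, in part, Cry1. DBP and TEF carry the rhythm on to detoxification and lipid genes, and in liver the times of feeding shift the phase of the whole loop.

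The data are 16 RNA libraries from the livers of male C57BL/6J mice, in 4 groups of 4. The study compared removal of ketohexokinase (KHK), the first enzyme of fructose breakdown, with inhibition of its kinase activity. All mice were on their diet for 10 weeks from 6 weeks of age, and all received an siRNA and a gavage over the last 4 weeks. The LFD group, whose diet the labels call chow, and the HFD group, on a high-fat diet, both received a control siRNA against luciferase and methylcellulose. The HFD + siRNA group received a siRNA against Khk, carried by a GalNAc tag that directs it to hepatocytes, and methylcellulose. In the HFD + Inhib group the siRNA was the control and the gavage held the inhibitor PF-06835919, which, unlike the GalNAc siRNA, is not directed to hepatocytes. Totals ranged from 24317111 to 35820234 expected counts per library. The labels number the libraries of a group from 1 to 4 and do not say that each came from a different mouse, so the p-values measure the spread between these libraries.

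The mice lived in a light and dark cycle with free access to food, but the clock time at which each liver was taken is not given in the sources used here. The mice also received saline or insulin shortly before tissue collection, and which library had which is not given either. The part of both in every result that follows was not tested. In whole liver, a fall in a gene's level can come from fewer cells of a type or from less RNA per cell, and the 2 cannot be told apart.

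The gene that the siRNA targets was checked first. Khk was at 214, 233, 349 and 269 CPM (counts scaled to a common library total) in replicates 1 to 4 of the LFD group. The HFD libraries were at 251, 322, 233 and 251 CPM. It was at 11.8, 9.14, 18.1 and 11.5 CPM in the HFD + siRNA group and at 112, 152, 94.6 and 120 CPM in the HFD + Inhib group. The 4 siRNA libraries lay below the 4 inhibitor libraries and these below all LFD and HFD libraries, whereas LFD and HFD overlapped, so that Khk does not check their labels. Against HFD, the log2 fold change was -4.38 (SE 0.23, adjusted p = 1.88e-08) with siRNA and -1.14 (SE 0.20, adjusted p = 0.000752) with the inhibitor, by the quasi-likelihood test of edgeR with Benjamini-Hochberg adjustment over all genes tested. All adjusted p-values below for differences between groups come from this test, with a threshold of 0.05.

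The loop closes through short elements in promoters, which were searched for in these genes. RefSeq promoter windows (build GRCm38.p6, from 250 bases before to 50 bases after the start site) were matched for 9 of the 10 genes, in 13 windows; Per2 had none. Both strands were searched for the E-box CACGTG (found in 7.17% of all 32544 windows), the related CACGTT (4.71%), the D-box TTATGNAA (3.39%), the REV-ERB and ROR element TAGGTCA (2.61%) and the CRE TGACGTCA (1.8%). Per3, Cry1 and Tef are shown because their levels were among the most tightly linked in these livers and because their windows hold some of these elements. The 250 bases before the first listed start site are printed on the strand of the gene, with the matches in capitals.
Per3, chr4:151044666-151044915, minus strand: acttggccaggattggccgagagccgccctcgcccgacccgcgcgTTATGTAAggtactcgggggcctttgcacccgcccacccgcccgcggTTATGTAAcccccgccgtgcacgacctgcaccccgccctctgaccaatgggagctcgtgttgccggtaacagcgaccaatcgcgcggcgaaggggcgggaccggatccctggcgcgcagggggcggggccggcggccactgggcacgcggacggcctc
Cry1, chr10:85185055-85185304, minus strand: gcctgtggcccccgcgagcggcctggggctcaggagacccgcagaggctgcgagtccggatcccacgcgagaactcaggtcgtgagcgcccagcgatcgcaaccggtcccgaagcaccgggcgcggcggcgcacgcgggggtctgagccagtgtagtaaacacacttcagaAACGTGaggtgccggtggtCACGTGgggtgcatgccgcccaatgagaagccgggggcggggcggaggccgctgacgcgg
Tef, chr15:81802423-81802672, plus strand: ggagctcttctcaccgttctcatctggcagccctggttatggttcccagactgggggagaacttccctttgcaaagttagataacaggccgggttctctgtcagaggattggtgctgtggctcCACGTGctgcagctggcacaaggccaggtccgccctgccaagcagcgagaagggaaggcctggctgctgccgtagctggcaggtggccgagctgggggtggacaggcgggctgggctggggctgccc
Per3 holds 2 D-boxes, which begin 205 and 158 bases before the start site. Cry1 holds an E-box 60 bases before the start site and, 79 bases before it, AACGTG, which is CACGTT on the other strand. Tef holds an E-box 127 bases before this start site and another 138 bases before its second one. Of the genes not printed, Per1 holds an E-box 166 bases and a D-box 24 bases before its first start site, and Nr1d1 holds CACGTT, on the other strand, 28 bases before its own. The windows of Clock, Npas2, Nr1d2 and Dbp hold none of these letters. A match describes the sequence and is not evidence that a factor binds there.

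Clock and Npas2 encode the activators that pair with BMAL1, and they differed in how much they varied. Clock was the steadiest of the 10 genes. Its level ranged from 66.1 to 119 CPM over the 16 libraries, a 1.79-fold range, and its group means (SD, n = 4) were 91.1 ± 8.28 CPM in LFD, 81.5 ± 8.83 in HFD, 77.2 ± 11.4 under siRNA and 90.8 ± 20.0 under the inhibitor. It passed the test in none of the 6 comparisons between groups, with log2 fold changes between -0.24 and 0.23. Some of these small differences turned sign with other settings, and HFD against LFD passed the test with a correction for GC content and length (adjusted p = 0.0453).

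Npas2 covered a 26.2-fold range, from 16 to 424 expected counts. It was at 5.32, 9.39, 12.6 and 4.22 CPM in replicates 1 to 4 of the LFD group and at 2.68, 3.44, 2.01 and 0.821 CPM in the HFD group. With siRNA it was at 3.80, 5.21, 2.34 and 12.4 CPM, and with the inhibitor at 0.601, 0.971, 2.46 and 0.480 CPM. Every LFD library lay above every HFD and every HFD + Inhib library, while the HFD + siRNA libraries reached from the HFD range to the LFD range, with replicate 4 far above the other 3. The group means fell in the order LFD (7.88 ± 3.84 CPM), HFD + siRNA (5.94 ± 4.48), HFD (2.24 ± 1.11) and HFD + Inhib (1.13 ± 0.913; SD, n = 4 each). Npas2 was lower in HFD than in LFD (log2 fold change -1.80, SE 0.55, adjusted p = 0.033), lower in HFD + Inhib than in LFD (-2.80, SE 0.59, adjusted p = 0.00167) and lower in HFD + Inhib than in HFD + siRNA (-2.40, SE 0.59, adjusted p = 0.00529), where the groups just overlapped. Neighbours in that order did not pass the test. The HFD against LFD call was lost without LFD replicate 2 or 3 (adjusted p = 0.0571 and 0.115) and without HFD replicate 1, 3 or 4 (0.0555, 0.086 and 0.095). It was also lost with a block for the replicate number, while the other 2 calls held in every setting tried. Their size moved: Npas2 in HFD + Inhib against HFD + siRNA had a log2 fold change of -1.72 without HFD + siRNA replicate 4 and -3.14 without HFD + Inhib replicate 3, and against LFD one of -3.54 without the latter library.

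**Figure D1:**
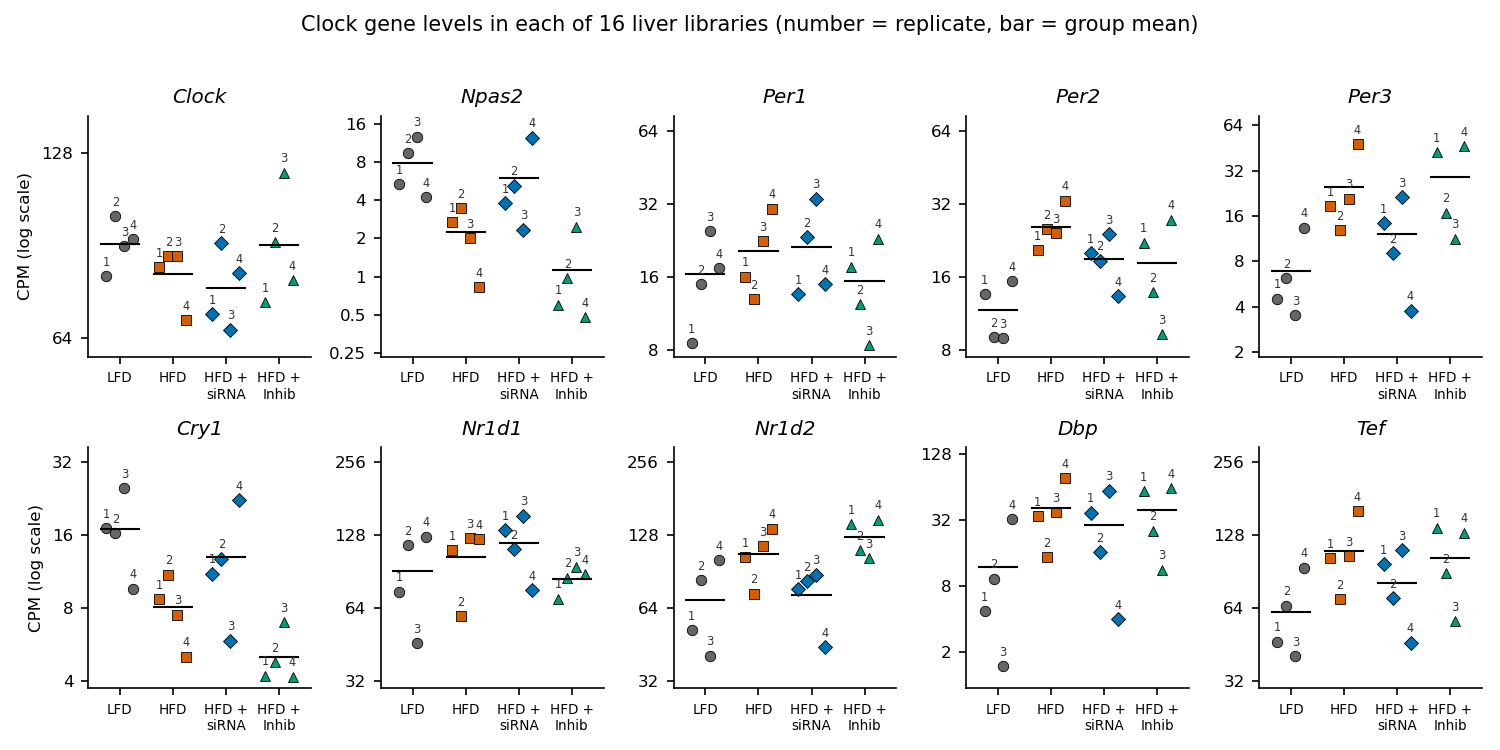
Level of each of the 10 clock genes in CPM (log scale) by group. Each symbol is a library with its replicate number, and bars are group means (n = 4). Npas2 and Cry1 lie highest in LFD and lowest in HFD + Inhib, Per3 lies the other way round, and Dbp spans 1.49 to 77.1 CPM with overlap between all groups.

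Per1, Per2, Per3 and Cry1 encode the repressors of the loop, and in HFD against LFD Cry1 was lower while Per2 and Per3 were higher. Per1, which also responds quickly to hormones and other signals, had group means between 15.3 and 21.3 CPM and passed the test in no comparison (adjusted p between 0.34 and 0.939). Its range over the 16 libraries was 4.02-fold and the 4 groups overlapped throughout.

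Per2 separated the LFD and HFD groups without overlap. It was at 13.5, 8.99, 8.93 and 15.3 CPM in replicates 1 to 4 of the LFD group and at 20.6, 25.1, 24.1 and 32.9 CPM in the HFD group. It was at 20.0, 18.6, 23.9 and 13.3 CPM with siRNA and at 22.1, 13.8, 9.23 and 27.5 CPM with the inhibitor. Both treated groups lay between the 2 control groups in their means, and the inhibitor group reached from the LFD to the HFD range. HFD was 2.20-fold above LFD (log2 fold change 1.14, SE 0.29, adjusted p = 0.0124), a call that held without any 1 library. No other difference in Per2 passed the test, although HFD + Inhib against LFD (0.64, SE 0.28, adjusted p = 0.0886) did so without HFD + Inhib replicate 3 (adjusted p = 0.0173) and with the correction for GC content and length (0.0278).

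Per3 had the larger folds and the larger spread. In the LFD group it was at 4.53, 6.20, 3.52 and 13.4 CPM in replicates 1 to 4, and in the HFD group at 18.6, 12.9, 20.8 and 48.0 CPM. With siRNA it was at 14.3, 9.03, 21.3 and 3.78 CPM, and with the inhibitor at 42.3, 16.8, 11.3 and 46.4 CPM. LFD replicate 4 alone reached into the range of the HFD and HFD + Inhib libraries, and HFD + siRNA replicate 4 alone fell into that of the other LFD libraries. Per3 was 3.61-fold higher in HFD than in LFD (log2 fold change 1.85, SE 0.58, adjusted p = 0.0344) and 4.22-fold higher in HFD + Inhib than in LFD (2.08, SE 0.58, adjusted p = 0.0103). The HFD against LFD call was lost without LFD replicate 1, 2 or 3 (adjusted p = 0.0943, 0.0636 and 0.104) and without HFD replicate 3 or 4 (0.0579 and 0.134). HFD + Inhib was 2.42-fold above HFD + siRNA without passing the test (adjusted p = 0.0878), and passed it without HFD + siRNA replicate 3 (0.0469).

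Cry1, the repressor that stays on the complex longest in the cycle, followed Npas2 in its order of group means. It was at 17.1, 16.3, 25.0 and 9.62 CPM in replicates 1 to 4 of the LFD group and at 8.72, 11.0, 7.51 and 5.04 CPM in the HFD group. With siRNA it was at 11.1, 12.8, 5.86 and 22.3 CPM, and with the inhibitor at 4.20, 4.78, 6.99 and 4.17 CPM. All 4 HFD + Inhib libraries lay below all 4 LFD libraries, and the same libraries that were low in Per3, LFD replicate 3 and HFD + siRNA replicate 4, were the highest of their groups. Cry1 was lower in HFD + Inhib than in LFD (log2 fold change -1.76, SE 0.36, adjusted p = 0.00123) and lower in HFD + Inhib than in HFD + siRNA (-1.37, SE 0.35, adjusted p = 0.00727, groups overlapping), and both calls held in every setting. It was also lower in HFD than in LFD (-1.07, SE 0.35, adjusted p = 0.0408). That call was lost without LFD replicate 1, 2 or 3 (adjusted p = 0.0815, 0.0551 and 0.152), without HFD replicate 1, 3 or 4 (0.0674, 0.1 and 0.123) and with the correction for GC content and length (0.0654).

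Nr1d1 and Nr1d2 encode the REV-ERB receptors, heme-binding repressors that act on lipid genes as well as on the clock. Per kilobase of the longest transcript, Nr1d1 had the highest mean level of the 10 genes over the 16 libraries, 36.6 CPM per kb. Tef (20.2 CPM per kb), Nr1d2 (20.1), Dbp (16.6) and Clock (8.74) followed, the Per genes and Cry1 lay between 3.05 and 3.92, and Npas2 was the lowest at 1.01. The order below Nr1d1 differed between groups. In LFD, Nr1d2 (14.8 CPM per kb) lay above Tef (14.0), Clock (9.35) above Dbp (6.54) and Npas2 (1.86) above Per3 (1.15). If the libraries were made with probes, dividing by transcript length does not apply. Nr1d1 passed the test in no comparison, with group means from 84.6 ± 10.5 CPM in HFD + Inhib to 119 ± 33.3 CPM in HFD + siRNA (SD, n = 4 each). Thra, which encodes a thyroid hormone receptor, overlaps Nr1d1 on the opposite strand and shares 7.27% of its 50-base words. Whether counting used the strand is not stated, so those reads cannot be told apart. Over the 16 libraries Thra covered a 2.04-fold range and Nr1d1 a 3.35-fold range.

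Nr1d2 was higher in HFD + Inhib than in LFD and in HFD + siRNA. Against HFD, the control on the same diet, HFD + Inhib did not pass the test (log2 fold change 0.23, SE 0.27, adjusted p = 0.601). It was at 51.9, 83.3, 40.7 and 101 CPM in replicates 1 to 4 of the LFD group and at 104, 73.2, 115 and 136 CPM in the HFD group. With siRNA it was at 76.5, 82.4, 87.9 and 44.1 CPM, and with the inhibitor at 142, 111, 103 and 148 CPM. All 4 HFD + Inhib libraries lay above all LFD and all HFD + siRNA libraries and overlapped with HFD. The difference was 1.82-fold from LFD (log2 fold change 0.86, SE 0.27, adjusted p = 0.0187) and 1.73-fold from HFD + siRNA (0.79, SE 0.27, adjusted p = 0.0308). Neither call held with the correction for GC content and length (adjusted p = 0.0855 and 0.161). The call against LFD was also lost without LFD replicate 1 or 3 or HFD + Inhib replicate 4 (0.0572, 0.0574 and 0.0523). The call against HFD + siRNA was lost without HFD + siRNA replicate 1 or 4 (0.05 and 0.0888) and without HFD + Inhib replicate 1 or 4 (0.0626 and 0.082). It was also lost with the block for the replicate number.

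Dbp and Tef encode related activators that bind D-boxes, and Dbp is among the genes with the deepest daily rhythm in liver. Dbp was at 4.74, 9.35, 1.49 and 32.5 CPM in replicates 1 to 4 of the LFD group and at 34.8, 14.7, 37.9 and 77.1 CPM in the HFD group. With siRNA it was at 37.2, 16.2, 59.2 and 3.98 CPM, and with the inhibitor at 59.0, 25.6, 11.3 and 62.5 CPM. The 4 groups overlapped, and the 21.8-fold range among the 4 LFD libraries was larger than the 3.40-fold difference between HFD and LFD (log2 fold change 1.77, SE 0.83, adjusted p = 0.153). No comparison of Dbp passed the test. Without LFD replicate 4, the LFD library with the high level, HFD against LFD and HFD + Inhib against LFD did (log2 fold change 3.001 and 2.95, adjusted p = 0.0247 and 0.0159). Dbp shares 16.2% of its 50-base words with Sphk2, a sphingosine kinase gene on the opposite strand. Over the 16 libraries Sphk2 covered a 1.85-fold range and Dbp a 51.6-fold range, and the part of shared reads was not tested.

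Tef moved with Dbp over a smaller range, 3.95-fold. It was at 46.5, 65.4, 40.6 and 93.8 CPM in replicates 1 to 4 of the LFD group and at 103, 69.7, 105 and 161 CPM in the HFD group. With siRNA it was at 97.0, 70.1, 111 and 46.1 CPM, and with the inhibitor at 137, 89.2, 56.4 and 131 CPM. The groups overlapped and no comparison passed the test. HFD against LFD (log2 fold change 0.83, SE 0.33, adjusted p = 0.0952) passed it without LFD replicate 4 (0.0325). HFD + Inhib against LFD (0.75, SE 0.33, adjusted p = 0.0891) passed it without LFD replicate 4 or HFD + Inhib replicate 3 (0.0288 and 0.0369). Gm17597, on the opposite strand, shares 1.83% of the 50-base words of Tef, and AC170187.1, on the same strand, shares 5.13% of those of Nr1d2.

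With the high-fat diet alone, 4 of the 10 genes passed the test: 2 were higher in HFD than in LFD (Per2, Per3) and 2 were lower (Npas2, Cry1). Over all genes tested, 18.4% passed this test, 9.58% as higher and 8.8% as lower. The median log2 fold change of the 10 was 0.47, against -0.01 for all genes. The count rested on single libraries: it was 2 without LFD replicate 1 or HFD replicate 1, 1 without LFD replicate 2, LFD replicate 3, HFD replicate 3 or HFD replicate 4, and 7 without LFD replicate 4. In the last case Nr1d2, Dbp and Tef joined the higher genes, and the lower ones were still 2.

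Neither way of lowering KHK moved a clock gene past the test relative to HFD. With siRNA, 0 of the 10 passed, against 11.7% of all genes (5.2% higher and 6.55% lower). At an unadjusted p under 0.05 only Npas2 was higher (log2 fold change 1.39, SE 0.55, adjusted p = 0.113), and DESeq2 also called 0. Of all genes, 26.9% had an unadjusted p under 0.05 there. With the inhibitor, 0 of the 10 passed, against 18.2% of all genes (9.8% higher and 8.42% lower). None of the 10 had an unadjusted p under 0.05, against 30.9% of all genes, and DESeq2 called 0. In both comparisons the standard error on the log2 scale ran from 0.14 for Clock to 0.80 for Dbp, with 0.27 for Nr1d2, 0.28 for Per2 and 0.29 for Nr1d1.

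The 2 treatments differed from each other in 3 clock genes. In HFD + Inhib against HFD + siRNA, Nr1d2 was higher and Npas2 and Cry1 were lower, against 33.8% of all genes passing (17.3% higher and 16.6% lower), so that 3 of 10 was no larger a share than that of all genes. Against LFD, the siRNA group had 0 of 10 called, against 8.63% of all genes (4.75% higher and 3.88% lower). There Per2 alone had an unadjusted p under 0.05 (log2 fold change 0.70, SE 0.28, adjusted p = 0.153) and DESeq2 called 0. Of all genes, 21.8% had an unadjusted p under 0.05 in that comparison. These shares at an unadjusted p apply to the lists below as well. The inhibitor group had 4 of 10 called against LFD, Per3 and Nr1d2 higher and Npas2 and Cry1 lower, against 36.9% of all genes (18.8% higher and 18.2% lower), again close to the share of all genes. Comparisons that share a group share its libraries, so their values are not independent of each other. Whether the siRNA and the inhibitor differed in how far they moved a gene from HFD is the HFD + Inhib against HFD + siRNA comparison itself.

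**Figure D2:**
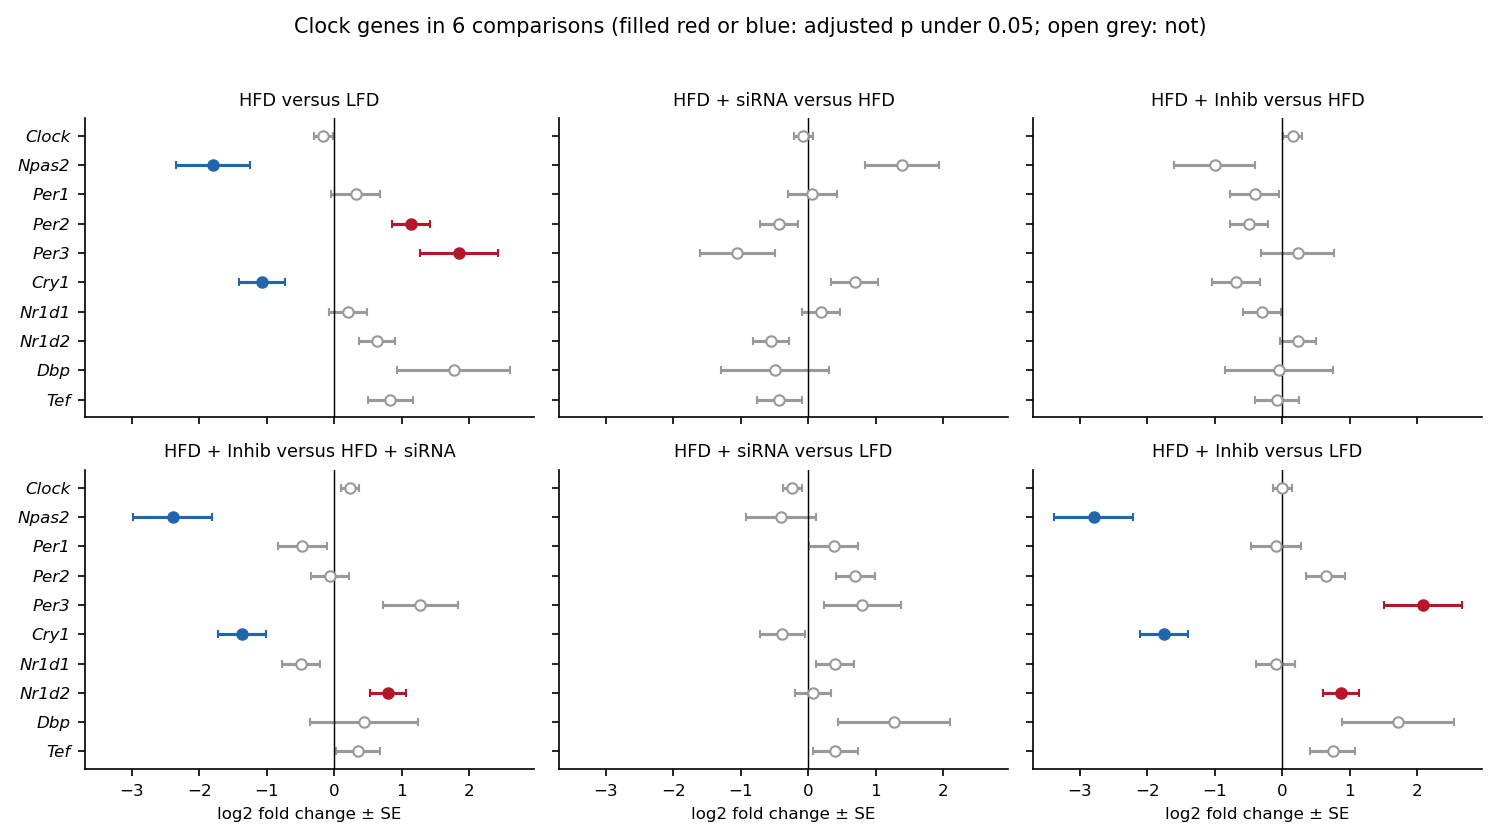
Log2 fold change with its standard error for the 10 clock genes in the 6 comparisons, from the edgeR fit of all 16 libraries. Filled symbols have an adjusted p under 0.05: 4 genes in HFD against LFD, 3 in HFD + Inhib against HFD + siRNA, 4 in HFD + Inhib against LFD and 0 in the other comparisons.

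Within a group, clock genes varied more between libraries than most other genes did. The within-group SD of log2 CPM was 1.46 for Dbp, 0.928 for Per3 and 0.898 for Npas2, against a median of 0.189 over the 12409 genes with a mean of the 16 log2 CPM values of 1 or more. Of those genes, 99.8%, 99% and 98.9% had a smaller SD. Per1 (0.604), Cry1 (0.564), Tef (0.549), Nr1d1 (0.485), Per2 (0.462) and Nr1d2 (0.441) each exceeded at least 93.4% of genes, and Clock alone was near the middle (0.213, above 59.7%).

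This spread was ordered. In the LFD group, replicate 4 was the highest in Dbp, Tef, Per2, Per3, Nr1d1 and Nr1d2 and the lowest in Npas2 and Cry1, and replicate 3 was the lowest in the same 6 genes and the highest in Npas2 and Cry1. In the HFD group replicate 4 was the highest in Dbp, Tef, Per1, Per2, Per3 and Nr1d2 and the lowest in Npas2, Cry1 and Clock, and replicate 2 was its opposite for Dbp, Tef, Per3, Npas2 and Cry1. In the HFD + siRNA group replicate 3 was at the high end for Dbp and the low end for Npas2, and replicate 4 the reverse. In the HFD + Inhib group replicate 4 was highest in Dbp and lowest in Npas2, and replicate 3 the reverse.

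**Figure D3:**
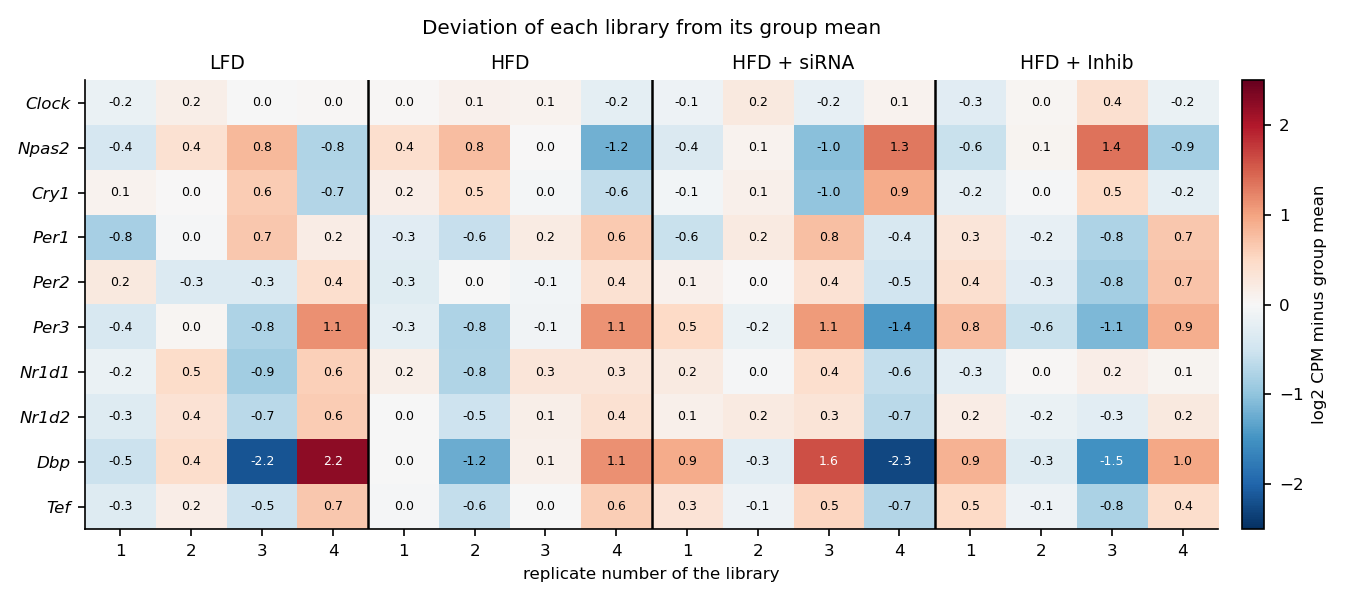
Deviation of each library from its group mean in log2 CPM for the 10 clock genes, by group and replicate. Red is above and blue below the group mean. Dbp deviates from -2.27 in HFD + siRNA replicate 4 to 2.23 in LFD replicate 4, and in both libraries Npas2 and Cry1 deviate the other way.

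The level of Dbp over that of Npas2 gives the size of this pattern in each library. The ratio was 0.89, 0.996, 0.119 and 7.70 in replicates 1 to 4 of the LFD group. The HFD libraries had ratios of 13.0, 4.28, 18.8 and 93.9. It was 9.81, 3.10, 25.3 and 0.321 with siRNA and 98.2, 26.4, 4.58 and 130 with the inhibitor. The groups overlapped: LFD replicate 4 had a higher ratio than HFD replicate 2, HFD + Inhib replicate 3 and HFD + siRNA replicates 2 and 4.

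**Figure D4:**
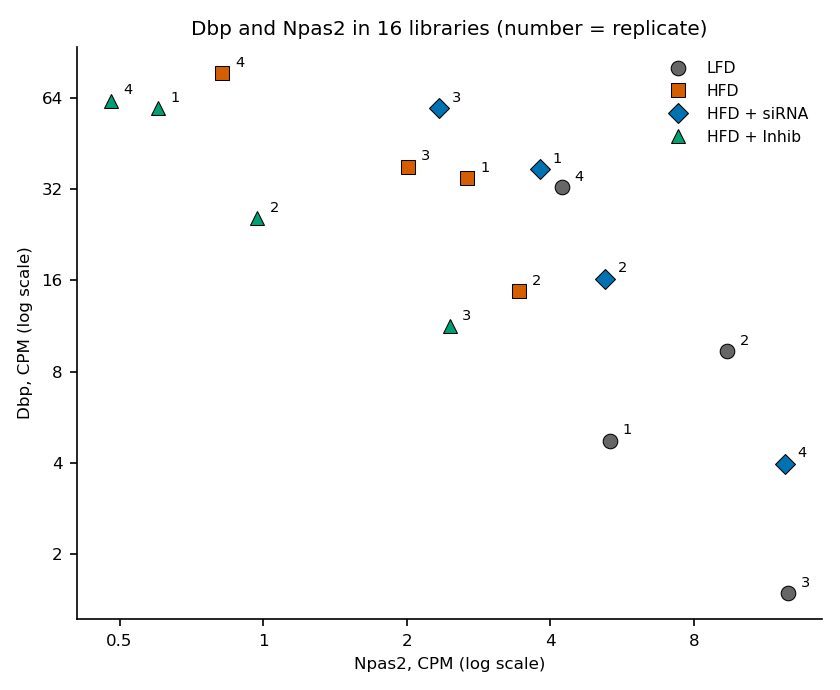
Dbp against Npas2 in CPM, both on log scales, with 1 symbol for each of the 16 libraries and its replicate number. In every group the library with the highest Dbp has the lowest Npas2, and the points run from LFD replicate 3 (1.49 and 12.6 CPM) to HFD + Inhib replicate 4 (62.5 and 0.480 CPM).

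All 45 pairs of the 10 genes were compared over the 16 libraries, using each library's deviation from its group mean, with a permutation test of 100000 shuffles within groups and Benjamini-Hochberg adjustment over the 45 pairs. The pairs were examined after the values had been seen, and genes of 1 library share its handling and depth. Of the pairs, 32 had an adjusted p under 0.05 by Pearson's r, 18 with a positive and 14 with a negative r, and 30 by Spearman's rho. All 32 kept their sign without the 2 libraries farthest from the median. Tef and Per3 (r = 0.98, rho = 0.98), Dbp and Tef (0.96, rho = 0.97) and Dbp and Per3 (0.95, rho = 0.98) deviated together, each with an adjusted p of 0.00011. Without the 2 farthest libraries the r of these pairs was 0.97, 0.97 and 0.93. Npas2 and Cry1 also deviated together (r = 0.91, rho = 0.94, adjusted p = 0.00011, and r = 0.89 without the 2 farthest libraries). Cry1 ran opposite to Dbp (r = -0.94, rho = -0.95, adjusted p = 0.00011, and r = -0.94 without the 2 farthest libraries), and Npas2 ran opposite to Per3 (-0.93, rho = -0.89, adjusted p = 0.0002, and -0.89). The raw permutation p of the pairs of Cry1 with Npas2, Per3 and Dbp and of Dbp with Per3 was 1e-05, the smallest these permutations can give.

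The signs of r split the 10 genes into Clock, Npas2 and Cry1 on one side and the other 7 on the other: r was positive in all 24 pairs within a side and negative in all 21 pairs between them. The sides were named from these values, so the split has no test. Per1 was the loosest member, with r between -0.54 and 0.62 and only its pair with Per3 called (adjusted p = 0.04), and Nr1d1 was tied to Nr1d2 (r = 0.86, adjusted p = 0.0068) but not to Clock (r = -0.03, adjusted p = 0.91). Against the background of all genes these values were large. The absolute r with Dbp had a median of 0.26 over 12600 other genes, and, each gene itself counted, only 0.00794% of them reached the r of Tef, 0.0317% that of Cry1 and 0.222% that of Npas2, whereas 24.4% reached that of Per1 and 14.8% that of Clock.

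**Figure D5:**
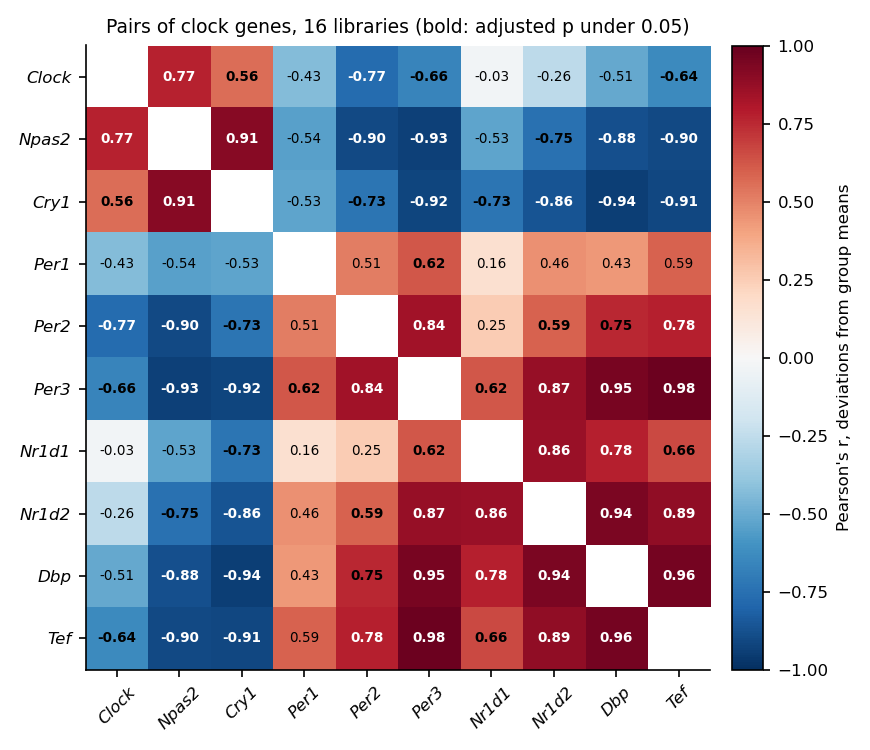
Pearson's r between the 10 clock genes, taken over the deviations of 16 libraries from their group means. Bold numbers have an adjusted p under 0.05 (32 of 45 pairs). Clock, Npas2 and Cry1 form a positive block, the other 7 genes form another, and the blocks are negatively related.

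The genes most like Dbp and Npas2 were sought among all 12601 genes for which edgeR's average log2 CPM, estimated from the counts of all libraries, was 1 or more, by Pearson's r of log2 CPM over the 16 libraries, groups included, as a description. Outside the 10, Ciart (r = 0.89), which encodes a repressor of the CLOCK and BMAL1 pair, and Bhlhe41 (0.88), which encodes a repressor of E-box genes, were nearest to Dbp. Exoc2 (0.87), which encodes a subunit of the exocyst, Gm5524 (0.87) and Mettl4 (0.85) followed. Bhlhe41 ranged from 0.335 to 10.3 CPM, while Exoc2 stayed between 11.4 and 15.3 CPM, so that a high r did not mean a large change. At the opposite end were Ppard (-0.93), a nuclear receptor gene, Nelfa (-0.92), Brd2 (-0.90), Phrf1 (-0.90) and Slc45a3 (-0.89).

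Nearest to Npas2 was Arntl (r = 0.97), the older symbol of Bmal1, which encodes the partner of CLOCK and NPAS2. Arntl ranged from 3.12 to 38.8 CPM, with group means (SD, n = 4 each) of 27.0 ± 9.14 CPM in LFD, 11.4 ± 4.97 in HFD, 21.7 ± 12.3 under siRNA and 8.39 ± 6.27 under the inhibitor. It was lower in HFD + Inhib than in LFD (log2 fold change -1.69, SE 0.50, adjusted p = 0.0144) and than in HFD + siRNA (-1.37, SE 0.50, adjusted p = 0.0419), with overlap in both. Without HFD + Inhib replicate 3 the log2 fold changes were -2.29 and -1.98. Clk3 (0.95), Dtx4 (0.94), Nfil3 (0.94) and Pde9a (0.93) came next. Running opposite to Npas2 were Ciart (-0.92), Fzd4 (-0.91), Wee1 (-0.90) and Azin1 (-0.90).

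Beyond the 10 genes, a list of 10 other core clock genes (among them Arntl, Arntl2, Cry2, Rora, Nfil3, Hlf, Bhlhe40, Bhlhe41 and Ciart) was counted in the same way. In HFD against LFD, Hlf, a relative of Dbp and Tef, was 1.38-fold higher (adjusted p = 0.0475) and Nfil3 was lower, 2 of 10 against 18.4% of all genes. With siRNA against HFD 0 passed, against 11.7% of all genes, 2 had an unadjusted p under 0.05 and DESeq2 called 0. With the inhibitor against HFD only Arntl2, a low-level paralog of Bmal1, rose (log2 fold change 1.13, SE 0.28, adjusted p = 0.00881, from 0.468 to 1.05 CPM), 1 of 10 against 18.2% of all genes. In HFD + Inhib against HFD + siRNA 2 were higher, Arntl2 and Rora, and 2 were lower, Arntl and Nfil3, 4 of 10 against 33.8% of all genes. Nfil3, whose product represses D-box genes, fell from 36.9 ± 14.7 to 12.9 ± 5.01 CPM (SD, n = 4 each, log2 fold change -1.51, SE 0.33, adjusted p = 0.0023). Against LFD the inhibitor group had 4 higher (Ciart, Arntl2, Rora and Hlf) and 2 lower (Arntl and Nfil3), 6 of 10 against 36.9% of all genes, with Ciart 5.02-fold higher (adjusted p = 0.0129) and Nfil3 0.25 of the LFD level (adjusted p = 0.000262). The siRNA group had 0 against LFD, with 3 at an unadjusted p under 0.05 and 0 by DESeq2. Hlf and a few genes below were named to complete a count of 5 or fewer, after their values had been seen. With each of the 8 libraries of a comparison left out in turn, the calls of Hlf and Nfil3 in HFD against LFD held in 3 and 6 of 8 fits, that of Arntl in HFD + Inhib against HFD + siRNA in 2, and those of Arntl2 and Rora against LFD in 4 and 6, while the other calls named here held in all 8.

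Of 12 clock-controlled output genes, 3 were higher and 1 was lower in HFD than in LFD, against 9.58% and 8.8% of all genes. Wee1, a kinase gene of the cell cycle, was 3.64-fold higher (adjusted p = 0.00372) and Nampt, for NAD salvage, 1.61-fold higher (adjusted p = 0.00265), while Elovl3, a fatty acid elongase gene, fell from 330.0 to 72.5 CPM (adjusted p = 0.00608). With siRNA against HFD, Wee1 and Nampt were lower (log2 fold change -1.21 and -0.64, adjusted p = 0.0402 and 0.00644) and Elovl3 was higher (3.93-fold, adjusted p = 0.0144). With the inhibitor against HFD, Por, which feeds electrons to cytochromes P450, was higher (2.46-fold, adjusted p = 0.00054), as was Elovl3 (2.71-fold, adjusted p = 0.0416), and Cyp2a5 was lower (0.21 of the HFD level, adjusted p = 0.00202). In HFD + Inhib against HFD + siRNA, Wee1, Nampt and Por were higher, with Nampt 1.96-fold (adjusted p = 5.15e-05), and Cyp2a5 was lower. Against LFD, the siRNA group had only Cyp2a4 called, while the inhibitor group had 5 higher (Wee1, Usp2, Nampt, Por and Cyp2a4) and Cyp2a5 lower, where 36.9% of all genes were called. In the other comparisons 11.7% (siRNA against HFD), 18.2% (inhibitor against HFD), 33.8% (inhibitor against siRNA) and 8.63% (siRNA against LFD) of all genes were called. Cyp2a4 was counted higher in all 3 high-fat groups against LFD, but it is a near copy of Cyp2a5 and its count is uncertain. With a library left out, Wee1 and Elovl3 stayed called with siRNA against HFD in 3 and 6 of 8 fits, Elovl3 with the inhibitor against HFD in 2, and Usp2, Cyp2a5 and Cyp2a4 with the inhibitor against LFD in 3, 4 and 6, while the other calls named here held in all 8.

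Of 14 genes for enzymes and cofactors that modify clock proteins, several were called in HFD against LFD, where 18.4% of all genes were. Csnk1d, for a kinase that phosphorylates PER proteins, fell from 61.4 to 48.2 CPM (log2 fold change -0.35, adjusted p = 0.0171). Fbxl21, for a ubiquitin ligase of CRY, was 1.80-fold higher (adjusted p = 0.00333) and Btrc, for a ubiquitin ligase of PER, 1.23-fold higher (adjusted p = 0.0213). With siRNA against HFD, only Csnk1d and Hdac3 were called, both higher, 2 of 14 against 11.7% of all genes, and Hdac3, for the deacetylase that REV-ERB recruits, rose from 16.3 to 26.4 CPM (1.62-fold, adjusted p = 0.000102). With the inhibitor against HFD, 2 were higher, Hdac3 (1.28-fold, adjusted p = 0.00443) and Gsk3b (1.29-fold, adjusted p = 0.00591), and 2 lower, Csnk1e (0.788 of the HFD level, adjusted p = 0.0423) and Fbxl21, 4 of 14 against 18.2% of all genes. In HFD + Inhib against HFD + siRNA, 3 of 14 were higher and 6 were lower, against 17.3% and 16.6% of all genes. The higher ones were Gsk3b, Nono and Sfpq (the last 1.28-fold, adjusted p = 0.00702), and Csnk1d and Hdac3 were among those lower. Against LFD, Fbxl21 and Hdac3 were higher with siRNA, where 8.63% of all genes were called. With the inhibitor against LFD, Gsk3b and Nono were higher and 3 were lower, Csnk1d and Wdr5 among them. There 36.9% of all genes were called. Leaving out a library, the calls in HFD against LFD held in 5 of 8 fits for Csnk1d and 6 for Btrc, that of Csnk1d with siRNA against HFD in 4, those of Csnk1e and Fbxl21 with the inhibitor against HFD in 3 and 1, that of Gsk3b against HFD + siRNA in 4, and those of Nono and Wdr5 against LFD in 7 and 1. The other calls named here held in all 8.

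Lists of genes that respond to hormones, temperature, handling and feeding were read beside the clock genes. Their counts stand against 18.4% of all genes called in HFD against LFD, 11.7% with siRNA and 18.2% with the inhibitor against HFD, 36.9% with the inhibitor against LFD and 33.8% against HFD + siRNA. Of 7 glucocorticoid receptor targets, only Fkbp5 was called in HFD against LFD (1.85-fold higher, adjusted p = 0.00299) and only Tsc22d3 with the inhibitor against HFD (0.548 of it, adjusted p = 0.0177). Of 10 temperature and heat shock genes, Dnaja1 was higher and Hspb1 lower in HFD than in LFD, only Rbm3 was called with siRNA against HFD (0.598 of it, adjusted p = 0.0153), and only Hspb1 with the inhibitor against HFD (3.89-fold higher, adjusted p = 0.000245). Of 11 immediate early genes, Egr1 and Ier2 were lower in HFD than in LFD (0.245 and 0.557 of it, adjusted p = 0.0299 and 0.027), and only Ier2 was lower with the inhibitor than in HFD (0.591 of it, adjusted p = 0.0475). Of 7 fasting and insulin-responsive genes, Irs2 and Igfbp1 were lower in HFD than in LFD (0.475 and 0.322 of it, adjusted p = 0.00579 and 0.0234). With siRNA against HFD, edgeR called 0 of the glucocorticoid, immediate early and fasting lists, with 2, 0 and 1 genes at an unadjusted p under 0.05 and 0, 0 and 1 called by DESeq2. The inhibitor against HFD gave 0 in the fasting list, with 1 gene at an unadjusted p under 0.05 and 0 by DESeq2. In HFD + siRNA against LFD, where 8.63% of all genes were called, Btg2 was 2.41-fold higher (adjusted p = 0.0106). Irs2 was at 0.512 of LFD there (adjusted p = 0.0171). That Irs2 call held in 6 of 8 fits with a library left out. Between HFD + Inhib and LFD, Egr1, Ier2 and Junb were lower with the inhibitor (0.136, 0.329 and 0.489 of LFD, adjusted p = 0.00227, 0.00018 and 0.0338), as were Errfi1 and Tsc22d3 among the glucocorticoid targets (0.482 and 0.603 of it, adjusted p = 0.0118 and 0.0244) and Igfbp1 (0.356 of it, adjusted p = 0.0192), while Fkbp5 was 1.53-fold higher (adjusted p = 0.0115). Of the temperature list, Dnaja1 and Hsp90aa1 were higher there and Cirbp was lower. Relative to HFD + siRNA, the inhibitor group had Ier2, Junb and Btg2 lower (0.459, 0.466 and 0.566 of the siRNA level, adjusted p = 0.00298, 0.0266 and 0.0313), likewise Tsc22d3 and Errfi1 (0.487 and 0.545 of it, adjusted p = 0.00332 and 0.0323), and Hspb1 and Rbm3 higher (2.53-fold and 1.56-fold, adjusted p = 0.00231 and 0.012). Several of these values rested on single libraries. Egr1 ran from 13.9 to 228 CPM in LFD, overlapping with HFD (21.8 ± 2.47 CPM, SD, n = 4) and HFD + Inhib (4.77 to 22.7 CPM), and Igfbp1 ran from 47.3 to 345 CPM in LFD, also overlapping with both. Without LFD replicate 3, Egr1 was at 0.511 of LFD in HFD (adjusted p = 0.211) and at 0.283 in HFD + Inhib (adjusted p = 0.0108). Igfbp1 was then at 0.601 and 0.663 of LFD (adjusted p = 0.149 and 0.171). With a library left out, the calls in HFD against LFD held in 3 of 8 fits for Egr1 and 4 each for Ier2 and Igfbp1, those with the inhibitor against HFD in 1 for Ier2 and 6 for Tsc22d3, and that of Rbm3 with siRNA against HFD in 7. Against LFD the inhibitor's calls held in 4 for Junb, 5 for Tsc22d3, 6 for Igfbp1 and 7 for Errfi1 and Hsp90aa1, and against HFD + siRNA in 2 for Errfi1, 4 for Btg2 and 5 for Junb. The other calls named here held in all 8. The comparisons of the inhibitor with LFD and HFD + siRNA are those in which Npas2 and Cry1 were lower and Nr1d2 was higher with the inhibitor. The part of these genes' signals in the clock gene values was not tested.

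The libraries were liver by their markers, and the summed markers of several cell types moved with the inhibitor. The 7 hepatocyte markers, led by Alb, had summed levels (SD, n = 4 each) of 80000 ± 8260 CPM in LFD, 68400 ± 6690 in HFD, 75200 ± 4910 under siRNA and 41900 ± 1470 under the inhibitor. The sums of the 4 inhibitor libraries, from 39800 to 43100 CPM, lay below the lowest of the others, 58500 CPM. Against HFD, 4 of the 7 were lower with the inhibitor (Alb, Ttr, Cps1 and Serpina1c), where 8.42% of all genes were lower, and with siRNA Serpina1c alone was higher (1.49-fold, adjusted p = 0.0126).

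Markers of other liver cells were read in the same way, first for the inhibitor against HFD. The 7 macrophage markers summed to 189 ± 16.3 CPM in HFD and 153 ± 28.7 in HFD + Inhib (SD, n = 4 each), with only Clec4f called (log2 fold change -0.51, adjusted p = 0.00756). Of 6 endothelial markers Lyve1 was higher (1.82-fold, adjusted p = 0.031), and of 6 stellate cell markers Reln and Pdgfrb were lower (adjusted p = 0.000251 and 0.0157). The other 4 stellate cell markers, added to complete the list, were not called. The means of Lrat, Col1a1 and Des were higher with the inhibitor (31.0, 11.0 and 2.86 CPM) than in HFD (23.6, 10.5 and 2.76), and that of Dcn was lower (96.7 against 118). Of 5 cholangiocyte markers edgeR called 0, with 0 at an unadjusted p under 0.05 and 0 by DESeq2. Among 6 lymphocyte markers tested, Ms4a1 and Nkg7 were lower, and the summed mean was 3.92 CPM in HFD and 1.71 CPM with the inhibitor. Of 4 adipocyte markers, Adipoq, Plin1 and Lep were too low to test and Cfd rose from 2.59 to 34.5 CPM (log2 fold change 3.675, adjusted p = 0.000315), or by a log2 fold change of 4.81 without HFD replicate 2. In HFD against LFD, Serpina1c and Apoa1 among the hepatocyte markers were lower (adjusted p = 0.0305 and 0.0333), and Reln and Cfd were higher. In HFD + siRNA against LFD, where 8.63% of all genes were called, Cfd was 13.3-fold higher (adjusted p = 0.00288). Reln was 1.4-fold higher there (adjusted p = 0.00673). Without LFD replicate 3, Cfd was 21.3-fold higher with siRNA than in LFD. Relative to HFD + siRNA, 5 of the 7 hepatocyte markers were lower with the inhibitor (16.6% of all genes were lower), as were Clec4f, Csf1r, Cd68 and C1qa among the macrophage markers (adjusted p = 0.000138, 0.00479, 0.0166 and 0.00401) and Reln and Pdgfrb among the stellate cell markers (adjusted p = 3.6e-05 and 0.00174). Against LFD, 6 of the 7 hepatocyte markers were lower (18.2% of all genes were lower), as were Clec4f and Csf1r (adjusted p = 0.000747 and 0.015) and Reln and Pdgfrb (adjusted p = 0.0389 and 0.00156). Lrat was called in neither comparison, and its mean was higher with the inhibitor (31.0 CPM) than with siRNA (28.1) or in LFD (21.3). Cfd was higher in both comparisons (4.68-fold and 62.3-fold, adjusted p = 0.00441 and 9.65e-06), though 101-fold above LFD without LFD replicate 3. Among the endothelial markers, Lyve1 was higher in both (2.53-fold and 1.70-fold, adjusted p = 0.00127 and 0.0321), while Stab2 was lower in both (0.781 and 0.793 of the level compared, adjusted p = 0.0129 and 0.0168), and against LFD others of the list were lower too. With a library left out, Serpina1c, Apoa1, Cfd and Reln stayed called in HFD against LFD in 3, 2, 4 and 7 of 8 fits. The inhibitor's calls held against HFD in 2 for Lyve1, 4 for Nkg7 and 6 for Pdgfrb. Against HFD + siRNA they held in 6 for Cd68 and 7 for Stab2, and against LFD in 2 for Reln, 4 for Lyve1 and 7 for Stab2. The other calls named here held in all 8. The part of these cells in the clock gene values was not tested.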

How the data were processed

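Per the labels, 16 mouse liver libraries were placed in 4 groups of 4. The authors deposited 1 table of expected counts (RSEM) for 50559 gene symbols, not scaled between libraries; 15.1% of the values are not whole. The submitters' processing notes name STAR, RSEM and the build mm39, with versions, annotation and strand setting not given in the sources used here. The study's paper gives the assay as HTG EdgeSeq, which uses probes, so how the libraries were made is uncertain. Column names matched the labels for all 16 libraries.

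The expected counts were rounded and filtered by filterByExpr of edgeR 4.0.16 (at least 10 counts), which left 18335 genes. They were scaled by TMM and fitted in 1 quasi-likelihood model of the 4 groups, in R 4.3.3. P-values were adjusted by Benjamini-Hochberg over all genes tested, with a threshold of 0.05. CPM use the TMM scaling, and log2 CPM add a prior count of 2. The within-group spread and pair correlations use log2 CPM. Scripts were tested on simulated data. Alternatives were DESeq2 1.42.0, its size factors, other filters, fits of only the groups compared, a replicate block, a threshold of 0.01, offsets for GC content and length (values for 86.5% of genes tested, from GENCODE M21), and each library left out in turn (for the lists, added after seeing the data). Promoters come from RefSeq on GRCm38.p6, not the build of the counts.

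The genes and lists were chosen with earlier results of these data known. The text names the 10 genes, Khk, up to 4 genes of each list per comparison (smallest adjusted p, groups not overlapping) and the 5 genes most and least like Dbp and Npas2, and says where it adds others. A few genes that this rule or the lists hold are not reported here. Bmal1, Bmal2 and G6pc1 carry their older symbols in the table.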

Additional observations from a re-analysis of the deposited data

How the results depend on the processing

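In every comparison, the number of the 10 clock genes called stayed within 1.5 times of that reported under DESeq2, its size factors in edgeR, the filters on low counts, fits of only the groups compared and the offsets for GC content and length. In HFD against LFD the count of 4 was 0 at a threshold of 0.01 and 1 to 7 with a library left out. In HFD + Inhib against LFD it was 2 at 0.01 and 3 to 6 with a library left out, and in HFD + Inhib against HFD + siRNA it was 2 to 4. The 0 calls of the other 3 comparisons stayed 0. The 32 pairs became 32 with a prior count of 0.5 or other size factors, 35 with offsets for GC content and length, and 27 to 39 with a library left out, choices made after seeing the data. The causes were not tested. Depth was lowest for Npas2, with 16 to 424 counts a library.

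Same-numbered libraries correlated, in their deviations from the group means, from 0.097 to 0.472 between HFD and HFD + Inhib, with 5 of 8 libraries closest to their own number. Over the other 5 pairs of groups the values ran from -0.278 to 0.266. Between LFD and HFD + siRNA, 5 of 8 libraries were likewise closest to their own number. In no pair of groups were all 4 over 0.1, so the numbers were not taken to pair the samples. With a replicate block the HFD against LFD count was 2 (Per2 and Per3) and the HFD + Inhib against HFD + siRNA count was 2.

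Among the 10 genes, signs turned only for differences that passed no test. With offsets for GC content and length, and with these and the replicate block, the log2 fold changes were 0.20 and 0.20 for Clock and -0.057 and -0.014 for Per1 (HFD + siRNA against HFD), 0.049 and 0.089 for Dbp (HFD + Inhib against HFD), -0.13 and -0.14 for Clock and 0.14 and 0.034 for Per2 (HFD + Inhib against HFD + siRNA), and 0.30 and 0.37 for Per1 and 0.17 and 0.17 for Nr1d1 (HFD + Inhib against LFD). Clock in that comparison was 0.0106 with no filter and 0.0115 with at least 10 counts everywhere, and Dbp in HFD + Inhib against HFD was 0.0011 with the replicate block. With a library left out, values in HFD + Inhib against HFD reached 0 for Clock (0.00 to 0.24). They crossed 0 there for Dbp (-0.36 to 0.44), Per3 (-0.092 to 0.74) and Tef (-0.25 to 0.16). In HFD + Inhib against LFD, values crossed 0 for Clock (-0.16 to 0.088), Nr1d1 (-0.32 to 0.11) and Per1 (-0.36 to 0.17). In HFD + siRNA against HFD, they did so for Nr1d1 (-0.0082 to 0.33) and Per1 (-0.26 to 0.30). The others that crossed 0 were Nr1d1 in HFD against LFD (-0.0087 to 0.42), Nr1d2 in HFD + siRNA against LFD (-0.12 to 0.30) and Per2 in HFD + Inhib against HFD + siRNA (-0.33 to 0.16).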
